A study of Mus musculus with 6 samples.

Results

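The p53 target genes examined here are Mdm2, Perp, Ercc5, Sesn1, Zmat3, Trp53inp1, Phlda3 and Aen, 8 of 9 genes listed by name for the p53 pathway, and they were taken with every probe set that the platform annotation assigns to them. They have 18 of the 45037 probe sets on the array. The remaining gene, Trp53, which encodes p53 itself, was not analysed here. RNA of double negative thymocytes, immature T cells that have not yet put CD4 or CD8 on their surface, was measured on 3 arrays labelled as double knockout of Egr1 and Egr3 and 3 arrays labelled wild type. Each array came from 1 animal per the labels. The labels give no strain, age or sex, and do not say how the alleles were made or whether the loss is limited to a cell type. The sample descriptions speak of cells sorted by flow cytometry, whereas the titles name whole thymus and amplified mRNA.

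p53 is a transcription factor that is stabilised after DNA damage and other stress, and it acts through the genes it switches on. Mdm2, one of these genes, encodes the ubiquitin ligase that marks p53 for destruction and so closes a feedback loop. Other targets stop the cell cycle, repair DNA, restrain growth signals or promote cell death. In early thymocytes p53 is known for holding back cells that failed to make a productive antigen receptor gene, and Egr1 and Egr3 are zinc finger transcription factors induced when the pre-T cell receptor signals.

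The arrays show features that bear on every value below. Egr1, a gene named as knocked out, read 1757, 1696 and 1221 on the arrays labelled double knockout, against 508, 509 and 455 on the arrays labelled wild type, so the label is not borne out by this probe set, and each direction below is stated for the arrays as labelled. For Egr3, the second gene so named, the brighter probe set gave 34.4, 45.8 and 32.9 in double knockout arrays, against 92.2, 83.1 and 30.8 in wild type arrays, with overlap (-0.59, SE 0.35, limma adjusted p = 0.528 without the filter). A further Egr3 probe set had a difference of -0.07 (SE 0.36, limma adjusted p = 0.964 without the filter). Neither reading of Egr3 passed the test. Where the probes lie relative to the deleted part of either gene is unknown here, and probes outside it would check nothing. The brighter Cd4 probe set lay under the brightest bacterial control on the 6 arrays, while Cd8a lay above it on all of them. Wild type replicate 3 stood apart in its blood cell transcripts. The summed intensity of 14 granulocyte markers was 19030 to 28670 on the arrays labelled double knockout, against 11691, 25298 and 423 on wild type replicates 1, 2 and 3. Because the samples are bulk RNA, fewer cells of a type and less RNA per cell cannot be told apart. The number of arrays, 3 in each group, limits the precision of every value.

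Short stretches of promoter sequence are shown first, because the best-known shared feature of these genes is binding of p53. The RefSeq promoter table (mouse build GRCm38.p6) held 7 gene starts for 5 of the 8 genes, Mdm2, Ercc5, Sesn1, Phlda3 and Aen. In the 250 bases before each start, the p53 half-site consensus was found with no mismatch before 1 start each of Mdm2, Sesn1 and Aen. The consensus reads the same on both strands. These 3 matches were picked for display after the search, and each stands in capitals within 30 bases.
Mdm2, chr10:117710925-117710954, minus strand: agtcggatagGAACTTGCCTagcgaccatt
Sesn1, chr10:41887256-41887285, plus strand: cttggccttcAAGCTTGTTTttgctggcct
Aen, chr7:78895927-78895956, plus strand: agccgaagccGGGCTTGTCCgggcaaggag

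The matches begin 186, 173 and 121 bases before the starts of Mdm2, Sesn1 and Aen in that order. The Sesn1 and Aen matches belong to the second of 2 starts that the table lists for each gene. Of all 32851 promoter windows of this length, 7.13% held a half-site. No member's window held a full site, meaning 2 half-sites at most 13 bases apart, which 0.0639% of all windows held. The 9-base EGR consensus GCGTGGGCG was sought on both strands and was in none of the 7 windows, against 0.536% of all windows. A match of letters is not evidence of binding. The best-known p53 sites of Mdm2 lie in its first intron, outside the window searched. No half-site was found before Ercc5 or Phlda3.

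Each value is a linear intensity of 1 probe set on 1 array, in arbitrary units. Levels of different probe sets are set together only to pick the brighter ones and in sums over markers. Neither use measures relative amounts of RNA, and the brightest probe sets weigh most in a sum. Changes are on the log2 scale of intensity plus 16, with the wild type mean subtracted from that of the arrays labelled double knockout, and with the moderated standard error (SE) of limma. Adjusted p-values are limma's with Benjamini-Hochberg adjustment over all probe sets tested, and changed means an adjusted p under 0.05. Probe sets whose mean log2 value fell below the 40th percentile (about 13.2 in intensity) were not tested. Of the 18 probe sets, 16 passed this filter, with at least 1 for each of the 8 genes.

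Ercc5 and Perp were higher in the arrays labelled double knockout, and no member was lower past the threshold. Of the 16 probe sets tested, 2 rose and 0 fell, beside 5.03% of all 27022 probe sets tested that changed, 2.91% higher and 2.11% lower. Perp passed the filter only through its level in the arrays labelled double knockout, and without the filter 1 member probe set, that of Ercc5, passed the test. With so few, this count does not set these genes apart from the array as a whole. An unadjusted p under 0.05 was found for 10 of the 16, and for 18.8% of all probe sets tested. The groups did not overlap in 10 of the 16, with higher values in the arrays labelled double knockout for 8 and lower values for 2, against 23.9% of all probe sets tested. The median change of the 16 was 0.37, against 0.00 (0.0025) over all probe sets tested. Several of the 16 read the same gene and share its RNA, so they are not independent measurements.

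**Figure D1:**
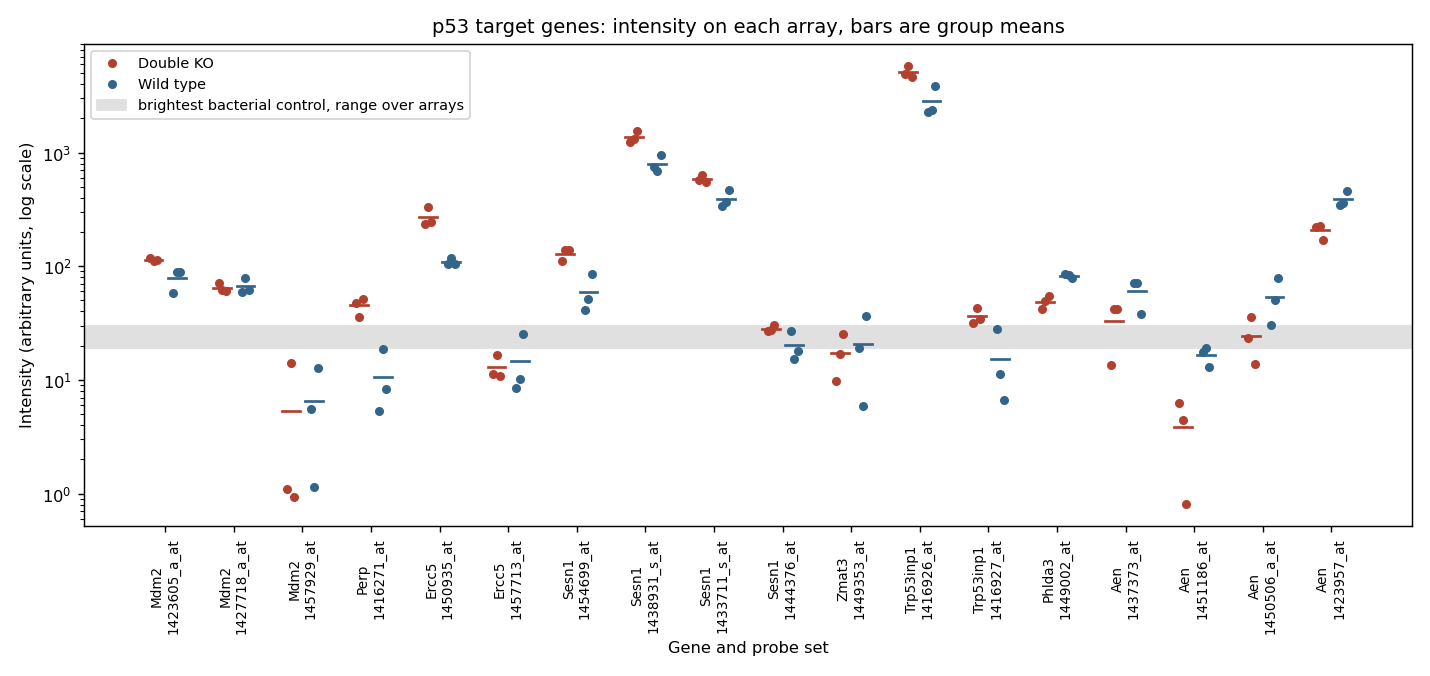
Intensity on a log axis for each of the 18 probe sets, with 1 point per array, arrays labelled double knockout in red on the left and wild type in blue on the right, and short bars for group means. The grey band spans the brightest bacterial control over the arrays, from 19.0 to 29.9, and the wild type points of Perp lie below it while the points labelled double knockout lie above it.

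Mdm2, the negative regulator of p53, did not pass the test on any probe set. Its brighter probe set 1423605_a_at read 119, 111 and 113 on the arrays labelled double knockout, against 58.0, 89.8 and 88.4 on the arrays labelled wild type. All 3 arrays labelled double knockout were above all 3 wild type arrays, yet the change of 0.46 (SE 0.25, 95% interval -0.09 to 1.00) had a limma adjusted p of 0.363. The other tested probe set, 1427718_a_at, read 70.8, 61.3 and 61.1 on the arrays labelled double knockout, against 59.4, 79.2 and 61.8 on the arrays labelled wild type. The groups overlapped there, with a change of -0.06 (SE 0.24, limma adjusted p = 0.933). The dim probe set 1457929_at was under the filter, with 0.934 to 14.0 on the arrays labelled double knockout against 1.14 to 12.8 on the arrays labelled wild type, below the brightest bacterial control on the 6 arrays. The 2 tested probe sets thus gave changes of opposite sign, and the 95% interval of the first holds both 0 and 1.00.

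Ercc5 encodes the XPG endonuclease of nucleotide excision repair, which cuts the damaged strand. Probe set 1450935_at read 237, 332 and 246 on the arrays labelled double knockout, against 104, 118 and 104 on the arrays labelled wild type. The groups did not overlap, and the lowest array labelled double knockout was well above the highest wild type array. The mean was 272 ± 52.0 in the arrays labelled double knockout and 109 ± 8.24 in the arrays labelled wild type (SD, n = 3 each), a change of 1.18 (SE 0.24, limma adjusted p = 0.0174). The rise was of similar size without any 1 array, between 1.05 and 1.26, but the call was lost without double knockout replicate 1 (adjusted p = 0.0852), 2 (adjusted p = 0.0786) or 3 (adjusted p = 0.0519) or wild type replicate 1 (adjusted p = 0.0533). Without wild type replicate 3 the change was 1.14 (limma adjusted p = 0.0138). The second Ercc5 probe set, 1457713_at, was at or below the brightest bacterial control on the 6 arrays, with 10.9 to 16.5 on the arrays labelled double knockout and 8.44 to 25.5 on wild type arrays, and its change of -0.07 (SE 0.31) did not pass (limma adjusted p = 0.934).

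Perp encodes a membrane protein of desmosomes, the junctions of epithelial cells, and is known as a p53 target that promotes cell death. Its single probe set 1416271_at read 48.0, 36.1 and 51.6 on the arrays labelled double knockout, against 5.32, 18.5 and 8.27 on the arrays labelled wild type. Every array labelled double knockout was above the brightest bacterial control of that array, and no wild type array was. The mean was 45.2 ± 8.11 in the arrays labelled double knockout and 10.7 ± 6.94 in the arrays labelled wild type (SD, n = 3 each). The change was 1.20 (SE 0.29, limma adjusted p = 0.0383), and its size depends on the offset, with 2.10 at an offset of 1 and 0.54 at an offset of 64. Without wild type replicate 3 it was 1.14 (limma adjusted p = 0.0436). The wild type arrays alone, with a mean log2 value of 4.72 against a filter of 4.87, would not have passed the brightness filter, so the probe set was tested because of its level in the other group. Without the filter its adjusted p was 0.0947, with an offset of 1 it was 0.062, and the call was also lost without double knockout replicate 1 (adjusted p = 0.164), 2 (adjusted p = 0.0703) or 3 (adjusted p = 0.133) or wild type replicate 1 (adjusted p = 0.127).

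Since Perp is an epithelial gene, the markers of thymic epithelial cells stand beside it. Of 12 such markers tested among 14 listed, none changed at gene level, with 6.98% of all genes tested changed. Their summed intensity was 3242, 3444 and 1459 on the arrays labelled double knockout, against 660, 926 and 2339 on the arrays labelled wild type, so the groups overlapped. The largest difference was that of Epcam, a surface adhesion protein, at 1.48 (limma adjusted p = 0.191), with overlap. Epcam read 2559, 2890 and 865 on the arrays labelled double knockout, against 271, 553 and 1784 on the arrays labelled wild type. This gene made up most of the sum on every array but wild type replicate 1, so the sum mainly reads Epcam. Cldn4, a tight junction protein, read 137, 127 and 122 on the arrays labelled double knockout, against 41.4, 52.9 and 92.6 on the arrays labelled wild type, without overlap (0.92, limma adjusted p = 0.0719). The keratin gene Krt18 (0.75, limma adjusted p = 0.127) and Ly75, an endocytic receptor (0.61, limma adjusted p = 0.172), also lay higher without overlap. Dsp, which encodes the desmosome protein desmoplakin, gave 0.63 with overlap (limma adjusted p = 0.262). Aire, the factor of medullary epithelium, lay lower without overlap (-0.92, limma adjusted p = 0.0985). It was dim, with 9.43, 2.67 and 8.47 on the arrays labelled double knockout, against 17.9, 27.8 and 35.6 on the arrays labelled wild type. Only wild type replicates 2 and 3 lay above the brightest bacterial control. The values labelled double knockout were all under the filter level of about 13.2, so Aire was tested because of its wild type level. Foxn1, the factor that defines these cells, read 27.8, 14.98 and 20.7 on the arrays labelled double knockout, against 12.0, 22.6 and 26.9 on the arrays labelled wild type. Psmb11, the proteasome subunit of cortical epithelium, read 2.00 to 23.1 on the arrays labelled double knockout and 2.61 to 16.3 on the arrays labelled wild type. Their part in the Perp signal was not tested.

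Of all other named genes, those with a profile over the 6 arrays nearest to Perp were Bace1, Rgs2 and Cpt1a, by the root mean square difference of log2 values after each gene was centred on its own mean. This difference was 0.069 for Bace1, a protease, 0.103 for Rgs2, a regulator of G protein signals, and 0.107 for Cpt1a, the carnitine transferase of fatty acid oxidation. Bace1 read 98.0, 69.5 and 108 on the arrays labelled double knockout, against 23.3, 50.4 and 28.0 on the arrays labelled wild type. Perp was taken as the member of largest change, so genes with a like difference between the groups were bound to lie nearest. Shared regulation was not tested.

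**Figure D2:**
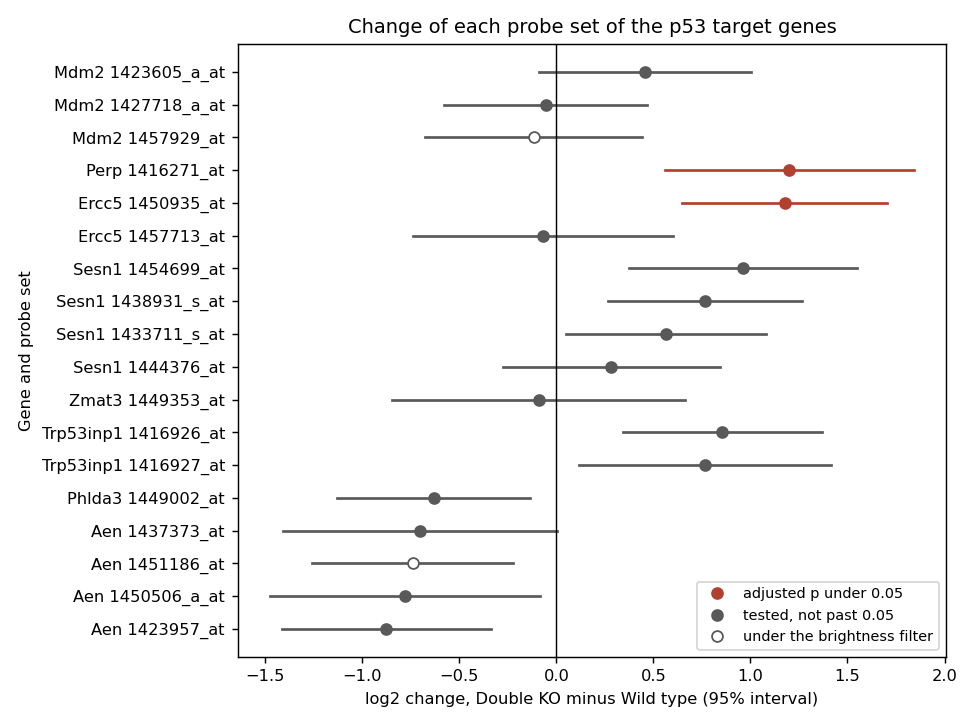
Change of each probe set on the log2 scale of intensity plus 16, arrays labelled double knockout minus wild type, with the 95% interval of the limma fit. Ercc5 1450935_at (1.18) and Perp (1.20) are drawn in red as past the threshold, the 4 Sesn1 and 2 Trp53inp1 probe sets lie right of 0, and the 4 Aen probe sets and Phlda3 lie left of it.

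Sesn1, a sestrin that restrains the growth kinase mTOR, gave positive changes on its 4 probe sets, none of which passed. Probe set 1438931_s_at read 1251, 1317 and 1551 on the arrays labelled double knockout, against 745, 694 and 944 on the arrays labelled wild type, without overlap (0.77, SE 0.23, limma adjusted p = 0.0813). Probe set 1454699_at read 111, 138 and 138 on the arrays labelled double knockout, against 40.9, 51.7 and 85.8 on the arrays labelled wild type, again without overlap (0.96, SE 0.27, limma adjusted p = 0.0638). In both, wild type replicate 3 was the wild type array nearest to the other group. Without that array both passed, with changes of 0.88 (limma adjusted p = 0.023) and 1.19 (limma adjusted p = 0.0109). They also passed with array weights, which made 2 of 16 and 2 of 15 alternative settings in that order. The other 2 probe sets gave 0.56 (SE 0.24, 1433711_s_at, no overlap) and 0.28 (SE 0.26, 1444376_at, with overlap).

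Trp53inp1 encodes a stress protein that promotes p53 activity and autophagy. Its probe set 1416926_at read 4889, 5799 and 4602 on the arrays labelled double knockout, against 2275, 2388 and 3883 on the arrays labelled wild type. The groups did not overlap, and wild type replicate 3 was again the nearest of the wild type arrays. The change of 0.85 (SE 0.23, 95% interval 0.34 to 1.37) had a limma adjusted p of 0.06, the lowest among members that did not pass. The threshold was passed in 3 of 16 alternative settings. These were without wild type replicate 3 (1.09, adjusted p = 0.00372), with quantile normalization (adjusted p = 0.0244) and with array weights (adjusted p = 0.00451). Calls over all probe sets, 1358 as reported, were 2744, 1442 and 3417 in these settings. Over the 16 alternatives the highest limma adjusted p was 0.229. The dim probe set 1416927_at read 31.4, 42.9 and 34.3 on the arrays labelled double knockout, against 28.3, 11.3 and 6.62 on the arrays labelled wild type (0.77, SE 0.30, limma adjusted p = 0.182). Sesn1 and Trp53inp1 are also known as targets of FOXO factors.

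Zmat3, an RNA-binding zinc finger protein, was dim, with 9.69, 16.9 and 25.1 on the arrays labelled double knockout, against 19.0, 5.90 and 36.7 on the arrays labelled wild type. The groups overlapped and 5 of the 6 values lay at or under the brightest bacterial control of their array. Its change of -0.09 (SE 0.35, 95% interval -0.84 to 0.66) leaves a difference in either direction undetermined at this brightness.

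Phlda3 and Aen had lower values in the arrays labelled double knockout, without passing the test. Phlda3, a pleckstrin homology protein that blocks the survival kinase AKT, read 42.1, 49.0 and 55.3 on the arrays labelled double knockout, against 85.5, 84.1 and 78.8 on the arrays labelled wild type. The groups did not overlap with means of 48.8 ± 6.59 in the arrays labelled double knockout and 82.8 ± 3.50 in the arrays labelled wild type (SD, n = 3 each). The change was -0.63 (SE 0.23, limma adjusted p = 0.15), and it passed in 1 of 16 alternative settings, array weights (adjusted p = 0.0392).

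Aen encodes a nuclease that takes part in p53-dependent cell death. Its brightest probe set, 1423957_at, read 221, 228 and 172 on the arrays labelled double knockout, against 346, 359 and 459 on the arrays labelled wild type. The groups did not overlap, and the change was -0.88 (SE 0.25, 95% interval -1.41 to -0.34, limma adjusted p = 0.0647). It passed in 2 of 16 alternative settings, a filter at the 60th percentile (adjusted p = 0.0499) and array weights (adjusted p = 0.0299). The other 2 tested probe sets gave -0.78 (SE 0.32, 1450506_a_at) and -0.70 (SE 0.32, 1437373_at), each with overlap. The dim probe set 1451186_at was under the filter and read 6.21, 4.45 and 0.811 on the arrays labelled double knockout, against 17.7, 19.1 and 13.03 on the arrays labelled wild type, all below the brightest bacterial control. The 3 tested probe sets of Aen thus shared a sign, with no overlap in 1 of the 3.

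**Figure D3:**
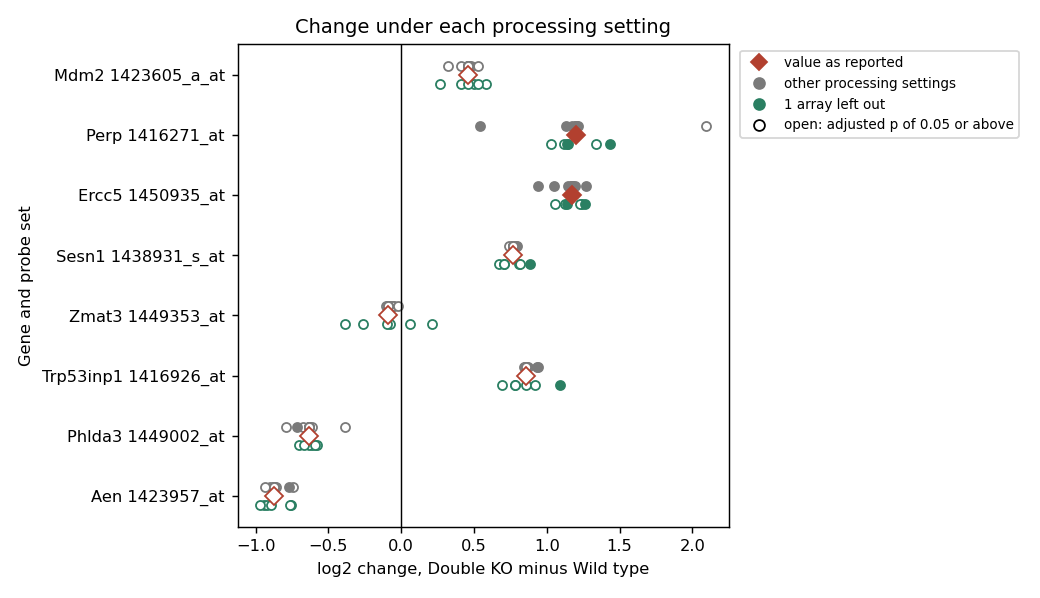
Change of the brightest probe set of each gene on the log2 scale, arrays labelled double knockout minus wild type, as reported (diamonds), under other processing settings (grey) and with 1 array left out (green). Filled symbols have an adjusted p under 0.05, and only Zmat3 has values on both sides of 0.

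Other p53 genes were read from lists, with 1 probe set for each gene (the one of highest mean) and limma's p-values adjusted over 13187 genes, of which 6.98% changed, 4.14% higher and 2.84% lower. Of 29 other p53 target genes tested, 1 rose and 1 fell, and the median change was -0.07, against -0.01 over all genes. Ddb2, the damage sensor of nucleotide excision repair, read 1841, 2299 and 1600 on the arrays labelled double knockout, against 831, 871 and 1043 on the arrays labelled wild type. This was a rise of 1.02 (SE 0.22, limma adjusted p = 0.0209), and a second probe set gave 1.00 (SE 0.27, limma adjusted p = 0.0524 over probe sets). The Ddb2 call was lost without double knockout replicate 1 (adjusted p = 0.124) or 2 (adjusted p = 0.0906) or wild type replicate 1 (adjusted p = 0.0639) or 2 (adjusted p = 0.0706).

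Rps27l, a ribosomal protein gene induced by p53, fell in the arrays labelled double knockout. It read 1689, 1209 and 2787 on the arrays labelled double knockout, against 4902, 4056 and 3054 on the arrays labelled wild type, a change of -1.15 (SE 0.31, limma adjusted p = 0.0492). The call was lost without double knockout replicate 1 or 2 or wild type replicate 1 or 2 (limma adjusted p between 0.156 and 0.174), and with quantile normalization (adjusted p = 0.0521), an offset of 1 (0.0626), no filter (0.0771) or no intensity trend (0.0739). Its 2 other probe sets gave -1.06 (SE 0.27, limma adjusted p = 0.0463 over probe sets) and -1.31 (SE 0.33, limma adjusted p = 0.0419 over probe sets), while over probe sets the first had an adjusted p of 0.0539 in limma. The first and the last of these 3 changes, -1.15 and -1.31, come from probe sets that carry the mark for cross-matching sequences, and the -1.06 comes from a probe set that does not. Rps27 is a near copy of this gene, and its share of the signal was not tested. Siva1, a death-promoting protein also among the 3 brightest targets in the list, gave -0.58 (SE 0.22, limma adjusted p = 0.162).

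Beyond the rule for naming genes, and chosen after their values were seen, Btg2 and Bbc3 lay just outside the threshold. Btg2, an antiproliferative gene, read 1516, 2045 and 1282 on the arrays labelled double knockout, against 494, 834 and 963 on the arrays labelled wild type (1.07, SE 0.29, limma adjusted p = 0.0527). Bbc3, which encodes the death protein PUMA, read 122, 77.2 and 148 on the arrays labelled double knockout, against 46.7, 56.8 and 37.3 on the arrays labelled wild type (1.02, SE 0.28, limma adjusted p = 0.0549). In both genes the groups did not overlap on the probe set given. For Btg2 a second tested probe set, with overlap, gave 0.96 (SE 0.43, limma adjusted p = 0.257 over probe sets).

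None of 23 tested regulators of p53 changed with limma, with 5 at an unadjusted p under 0.05, beside 20.9% of all genes tested, and a median of -0.06. The brightest were Rpl11, a ribosomal protein that can inhibit Mdm2 (0.17, SE 0.17), Trp53bp1, a damage response adaptor (-0.51, SE 0.20), and Usp7, the enzyme that removes ubiquitin from p53 and Mdm2 (-0.44, SE 0.31). On its brightest probe set Usp7 passed in 1 of 15 alternative settings, without wild type replicate 3 (-0.81, limma adjusted p = 0.0273). With all arrays its other tested probe sets gave -0.28, 0.06, 0.22, 0.25 and 0.18. None of these passed (limma adjusted p from 0.643 to 0.942 over probe sets). A further 2 regulators were named after their values were seen. Chek1, a checkpoint kinase, read 342, 287 and 439 on the arrays labelled double knockout, against 1600, 917 and 433 on the arrays labelled wild type, with overlap (-1.28, SE 0.40, limma adjusted p = 0.088). A second Chek1 probe set, without overlap, gave -1.005 (SE 0.28, limma adjusted p = 0.0653 over probe sets). The differences of the other 2 tested, -0.96 with an SE of 0.35 and -0.23 with an SE of 0.33, did not pass either. Mdm4, the Mdm2 relative that inhibits p53, gave 0.49 (SE 0.25, limma adjusted p = 0.293) on its brightest probe set and -1.30 (SE 0.36, adjusted p = 0.0618 over probe sets) on another.

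None of 12 tested relatives of the members changed at gene level either, with 4 at an unadjusted p under 0.05 in limma, beside the same 20.9% of all genes tested, and a median of 0.10. The brightest of them were Fen1, a nuclease of the same family as Ercc5 (-0.69, SE 0.27, limma adjusted p = 0.163), and the exonuclease genes Isg20 (0.03, SE 0.29) and Isg20l2 (0.27, SE 0.40), relatives of Aen. Fen1 passed in 2 of 15 alternative settings, without wild type replicate 3 (-0.86, limma adjusted p = 0.0443) and with array weights (adjusted p = 0.0271). The 2 other sestrins, named after their values were seen, gave -0.93 (SE 0.31, limma adjusted p = 0.109) for Sesn2 and 0.77 (SE 0.28, limma adjusted p = 0.143) for Sesn3. That Sesn2 probe set lay under the brightest bacterial control on every array labelled double knockout and on wild type replicate 2. Another tested Sesn2 probe set gave 0.10 (SE 0.39, limma adjusted p = 0.926 over probe sets). A dimmer Sesn3 probe set, with intensities of 154, 160 and 153 on the arrays labelled double knockout, against 67.9, 68.3 and 50.8 on the wild type arrays, passed over probe sets (1.12, SE 0.23, limma adjusted p = 0.0183).

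**Figure D4:**
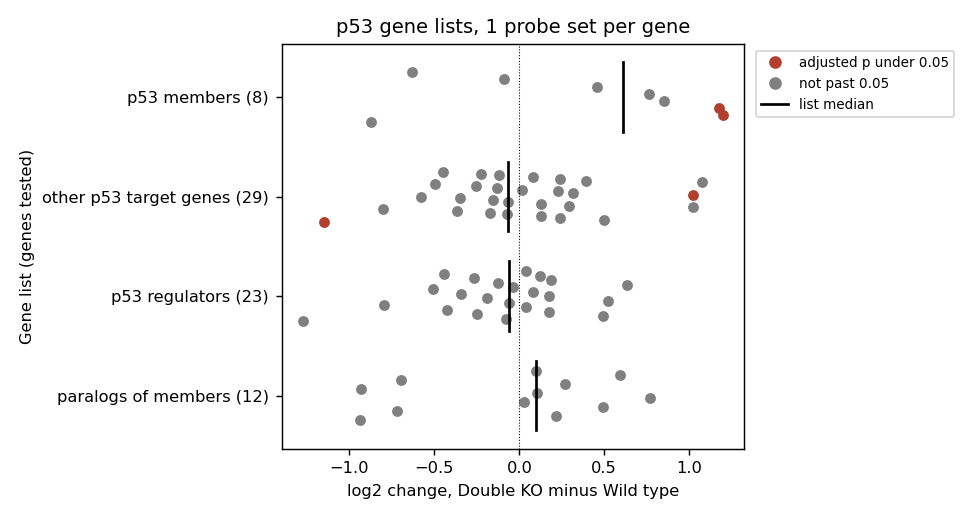
Change of each tested gene on the log2 scale, arrays labelled double knockout minus wild type, by list, with black lines for list medians and red points for an adjusted p under 0.05 over all genes. The other target genes spread from -1.15 to 1.07 around a median of -0.07, and no regulator or relative of a member is red.

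Some markers of cell types differed between the groups. None of 10 macrophage and dendritic cell markers tested, 4 erythroid markers or 2 CD4 and CD8 coreceptor genes changed. The summed intensity of 11 double negative thymocyte markers was 22326 to 23857 on the arrays labelled double knockout, against 32837 to 40605 on the arrays labelled wild type, and 3 of the 11 fell and 1 rose, beside 2.84% of all genes lower and 4.14% higher. For 9 B cell markers it was 2476 to 2945 on the arrays labelled double knockout, against 1164 to 2086 on the arrays labelled wild type, and 1 of 8 tested rose. That gene was Cd79b, a B cell receptor subunit, with 1782, 1922 and 1816 on the arrays labelled double knockout, against 571, 959 and 1081 on the arrays labelled wild type. Cd79b alone made up most of the B cell sum on every array labelled double knockout. Its partner Cd79a gave -0.60 (limma adjusted p = 0.325) and Cd22, a B cell surface receptor, -0.61 (limma adjusted p = 0.336). For 9 natural killer and cytotoxic cell markers it was 14541 to 15362 on the arrays labelled double knockout, against 11470 to 16369 on the arrays labelled wild type, and 5 of 8 tested rose. Gzma, the brightest of these markers, made up most of that sum and did not change (-0.08, limma adjusted p = 0.856). For 10 fibroblast and endothelial markers the sum was 2582 to 2740 on the arrays labelled double knockout, against 804 to 1437 on the arrays labelled wild type, and 1 of 6 tested rose. That gene, the growth factor receptor gene Pdgfrb (1.47, limma adjusted p = 0.00682), read 2513, 2597 and 2481 on the arrays labelled double knockout, against 684, 808 and 1281 on the arrays labelled wild type. Pdgfrb alone made up most of that sum on every array, while Col1a1, Pecam1 and Vwf lay under the brightest bacterial control on the 6 arrays. Among 13 granulocyte markers tested, only Stfa3, a stefin, changed, with a rise of 4.02 (limma adjusted p = 0.000168). It read 505, 331 and 656 on the arrays labelled double knockout, against 27.3, 20.3 and 1.60 on the arrays labelled wild type. These wild type values lay near or under the brightest bacterial control. Of the other granulocyte markers tested, Mpo (-0.69), Csf3r (-0.23) and Elane (-0.16) had negative changes and the rest positive ones, none past the threshold. The part of these cell types in the changes of the p53 target genes was not tested.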

How the data were processed

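The authors deposited linear intensities of 45101 probe sets on 6 arrays, with a mean of 150 over the middle 96% of values on every array, the mark of a common scaling. The scanner software and the probe set summary are not stated in the labels. Leaving out 64 controls gave 45037 probe sets, of which 34945 have 1 gene symbol in the platform annotation, 932 several and 9160 none. Of the 34945, 34741 matched RefSeq (GRCm38.p6) by Entrez gene identifier and took the RefSeq symbol. An offset of 16 was added, log2 taken and each array centred on its median, since medians differed by 0.126. The test was limma 3.58.1 in R 4.3.3 (lmFit, eBayes with intensity trend), tested on simulated data. The brightest of 27 bacterial controls on each array served as an upper level for signal without a target. Named genes were all members by every probe set, and in each list the genes past the threshold and the 3 brightest, with likeness taken for the member of largest change. The likeness planned for Trp53 was not run. Members and lists were chosen with earlier results of these data known. The labels do not say whether replicate numbers pair the arrays, and the main fit did not pair them. Same-numbered deviations from the group means correlated at -0.05, -0.13 and -0.29. Alternatives covered normalization, offset, filter, trend, weights, a replicate block, arrays left out and 1 probe set per gene.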

Additional observations from a re-analysis of the deposited data

How the results depend on the processing

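The count of changed probe sets, 1358 as reported, was 3417 with array weights and 573 with the replicate number as a block, and ranged from 376 to 2744 with 1 array left out. It was lowest without double knockout replicate 1 and highest without wild type replicate 3. The count of changed member probe sets, 2 as reported, was 1 with an offset of 1, 1 without the filter, 8 with array weights and 0 with the replicate block, and ranged from 0 to 5 with 1 array left out. The count of changed genes in the 3 other p53 lists, 2 as reported, was 4 on values as deposited, 1 with an offset of 1, 1 without the filter, 1 without the intensity trend, 9 with array weights and 0 with the replicate block, and ranged from 0 to 8 with 1 array left out. Directions turned only in single results near 0 with 1 array left out, which ranged from -0.14 to 0.081 for the dimmer tested Mdm2 probe set, from -0.38 to 0.21 for Zmat3, from -0.15 to 0.26 for Isg20 and from -0.11 to 0.64 for Isg20l2. Of 375 single values recomputed, 326 kept direction and side of the threshold, 26 lost and 15 gained a call and 8 turned. By definition, only results called as reported could lose a call, and only the others could gain one. The call was lost in 7 of 15 alternatives for Perp, 5 of 16 for Ercc5, 5 of 15 for Ddb2 and 9 of 15 for Rps27l. Changing only the filter, trend or block leaves the change itself as it is, so direction could not turn there. The causes were not tested. Perp's change depends on the offset, 2.10 at 1 and 0.54 at 64, and its wild type values lie under the brightest bacterial control. With the replicate block, the limma adjusted p was 0.0733 for Ercc5 1450935_at and 0.0929 for Perp. At gene level it was 0.102 for Ddb2 and 0.118 for Rps27l. The labels do not say what arrays of the same replicate number share, and why these calls were lost was not tested.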
